A study of Nematostella vectensis and Apis mellifera and Strongylocentrotus purpuratus with 22 samples.

Results

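The anthox genes of the starlet sea anemone Nematostella vectensis are its Hox genes. Levels of CpG methylation were described in gametes and early embryos for regions that hold 5 of them, anthox1, anthox1a, anthox6a, anthox6 and anthox7. Anthox6 and anthox7 were measured only as parts of 1 longer region and have no levels of their own here. The 4 regions are anthox1 on scaffold 4, anthox1a on scaffold 3, anthox6a on scaffold 27 and the stretch of scaffold 61 that runs from anthox7 to anthox6. These regions are the ones for which the study's picture of the sea anemone Hox genes gives coordinates, and anthox1 and anthox1a were cut to narrower bounds. Together they held 3126 of the 8891036 CpGs listed for the species, and 2628 of these, of 4944094 in the whole genome, had at least 5 reads in all 8 libraries. The whole-genome bisulfite sequencing (WGBS) libraries came from wild-type lines raised in the laboratory. The Florida set (FL) comprised sperm, oocytes, cleavage embryos, blastulae and gastrulae, and the Massachusetts set (MA) comprised sperm, cleavage embryos and blastulae. Somatic cells were depleted from the sperm by centrifugation, and embryos were staged by morphology. Each stage has 1 set of counts. For FL cleavage and FL gastrula the labels give 2 replicates and for the other stages 1, while the study's supplement lists 1 Florida sample for FL cleavage and for FL gastrula. With 1 set of counts per stage, no value below has a replicate check.

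Hox genes encode homeodomain transcription factors that give cells their position along a body axis. In bilaterian animals they are known for lying in clusters and for patterning the axis from head to tail, and in the sea anemone they are expressed in territories along the oral-aboral axis and along the directive axis, which crosses it. Anthox1 is known from the aboral end of the larva. Anthox1a and anthox6a are expressed in staggered domains of the inner cell layer across the directive axis, where Hox genes set the boundaries of the segments that later carry tentacles. Anthox6 and anthox7 are related to the anterior Hox genes of bilaterians, and anthox6 is expressed around the developing pharynx. Where invertebrate genomes carry CpG methylation, it often forms a mosaic, in which methylated stretches alternate with unmethylated ones.

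In WGBS, unmethylated cytosines are converted and read as thymines. The methylation level of a CpG is the share of its reads that kept the cytosine, from 0 to 1, and the level of a region is the mean over its CpGs with at least 5 reads in all 8 libraries. Total reads over CpGs ranged from 69290307 in MA cleavage to 389977166 in FL blastula, with a median of 9 to 48 reads per CpG. The levels are not corrected for incomplete conversion, so that an unmethylated region does not read exactly 0. As a scale for this floor, windows of 1000 bp that held 5 or more covered CpGs were sorted into unmethylated ones, with a level under 0.2, and methylated ones, with a level over 0.8. In the windows that were unmethylated in all 8 libraries, the median level of a window lay between 0.00681 in FL blastula and 0.0112 in FL cleavage. Confidence intervals are 95% Clopper-Pearson intervals of the pooled reads, and they cover counting error only.

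The single-gene regions of anthox1, anthox1a and anthox6a lay at this floor in all 8 libraries. At anthox1 (scaffold 4, positions 1069039 to 1073255, assembly ASM20922v1), the FL levels were 0.00772 in sperm, 0.00846 in oocytes, 0.0106 in cleavage embryos, 0.00670 in blastulae and 0.00785 in gastrulae. The MA levels of anthox1 were 0.00713 in sperm, 0.0119 in cleavage embryos and 0.0123 in blastulae. No stage stood apart, as the highest and the lowest library of anthox1 were both blastulae, one from each population. The region held 178 CpGs, and between 63.6% and 90.3% of those compared had no methylated read at all, with the lowest share in FL blastula, the deepest library, and the highest in MA sperm. In FL blastula, 76 of 11450 reads were methylated, which gives a pooled level of 0.00664 (0.00523 to 0.00830).

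At anthox1a (scaffold 3, positions 2234312 to 2239026), the FL levels were 0.00846 in sperm, 0.00782 in oocytes, 0.0121 in cleavage embryos, 0.00698 in blastulae and 0.00726 in gastrulae. The MA levels were 0.00694 in sperm, 0.00668 in cleavage embryos and 0.00890 in blastulae. Here the extremes were the cleavage libraries, with FL cleavage highest and MA cleavage lowest. The region was the most even of the 4, since the highest level of any of its CpGs in any library was 0.154.

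At anthox6a (scaffold 27, first CpG at 327614 and last at 332318), the FL levels were 0.00878 in sperm, 0.00971 in oocytes, 0.00840 in cleavage embryos, 0.00566 in blastulae and 0.00792 in gastrulae. The MA levels were 0.00752 in sperm, 0.00896 in cleavage embryos and 0.0105 in blastulae. Anthox6a was the region with the thinnest coverage, as 121 of its 181 CpGs had 5 reads everywhere and its fewest reads were 1520, in MA cleavage. In a run of 20 CpGs, from 327916 to 328355, none reached 5 reads in any of the 3 MA libraries. Of the CpGs of anthox6a with 5 reads in all 5 FL libraries, 7.05% stayed under 5 reads in all 3 MA libraries, beside 7.53% in the whole genome, 3.29% on scaffold 61, 1.12% at anthox1 and 0 of 162 at anthox1a. At anthox6a these were 11 CpGs, fewer than the 20 of the run, so some CpGs of the run also lacked 5 reads in an FL library. MA levels of that run were not measured.

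**Figure D1:**
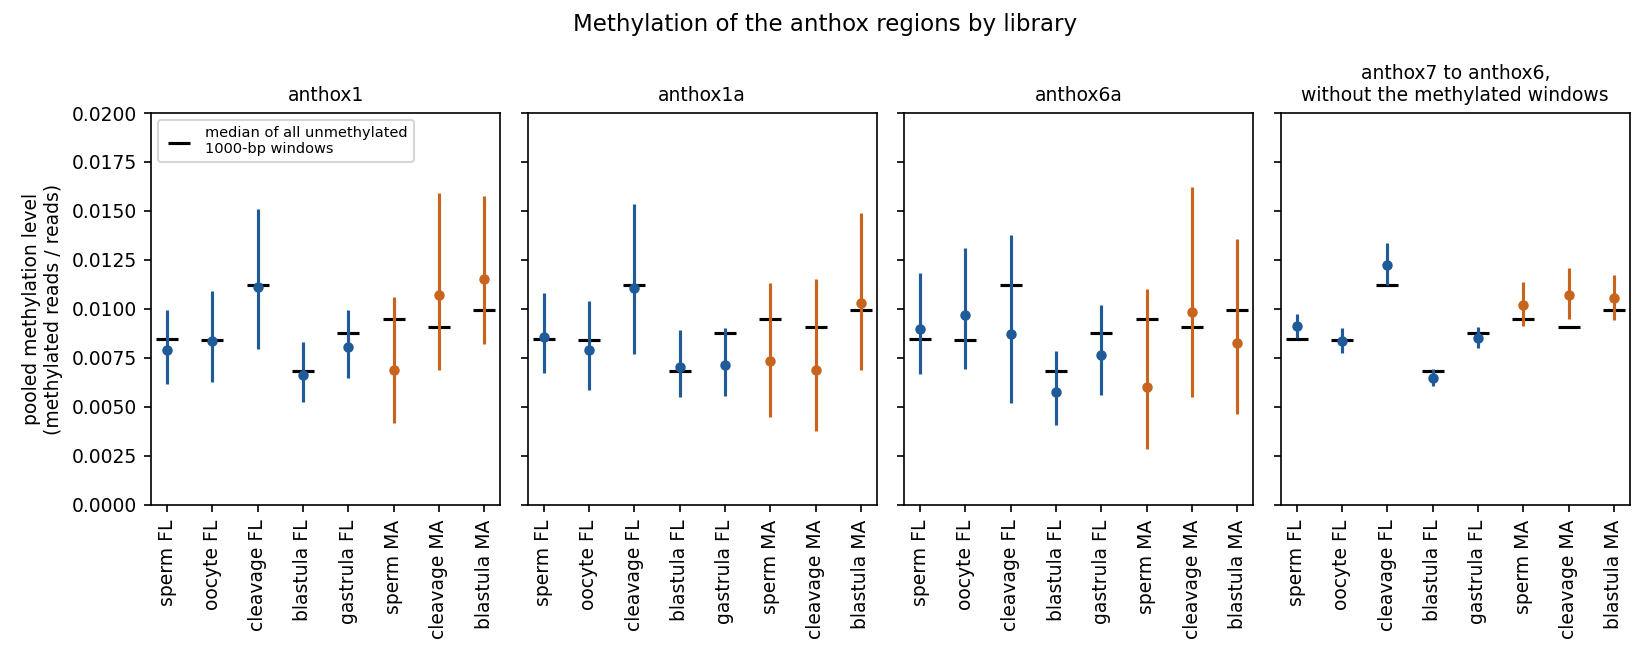
Pooled methylation level (methylated reads over reads, y axis from 0 to 0.02) of the 4 anthox regions in the 8 libraries on the x axis, FL in blue and MA in orange, with 95% Clopper-Pearson intervals. The region from anthox7 to anthox6 is drawn without its pair of methylated windows. The black dashes give the median level of the genome's unmethylated windows in the same library, which lay inside the interval of anthox1 in 8 of 8 libraries.

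The pooled level of anthox1 was below the median unmethylated window in 6 libraries, that of anthox1a in 5 and that of anthox6a in 5 of the 8, and the median lay inside the interval of each of the 3 regions in all 8 libraries. For the region from anthox7 to anthox6 without its methylated windows, whose interval is narrower, the level was below the median in 3 libraries and the interval held the median in 5. FL cleavage was the FL library with the highest level at anthox1 and anthox1a, and it also had the highest median over all unmethylated windows. The pooled level over all CpGs of the unmethylated windows, which counts windows of up to 0.2, was higher than their median, from 0.00971 in FL blastula to 0.0152 in MA blastula. All 3 regions, and the region from anthox7 to anthox6 without its methylated windows, were below it in 8 of 8 libraries. The interval lay wholly below it in 5 libraries for anthox1, 7 for anthox1a, 4 for anthox6a and 8 for the region from anthox7 to anthox6 without the pair. The study reports a conversion rate for each library from added unmethylated lambda DNA, which was highest in FL blastula and lowest in FL gastrula. These rates were not applied here. Whether they account for differences in level between the libraries was not tested.

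The region from anthox7 to anthox6 was the longest, with 2605 CpGs from position 659359 to 736365 of scaffold 61. Its mean level was 0.0151 in FL sperm, 0.0130 in oocytes, 0.0178 in cleavage embryos, 0.0120 in blastulae and 0.0141 in gastrulae, and in MA it was 0.0162 in sperm, 0.0160 in cleavage embryos and 0.0158 in blastulae. In each library, this was above the level of each of the 3 single-gene regions. Without a pair of adjacent methylated windows, 731001 to 733000, the level of the remaining 2587 CpGs was 0.00934 in FL sperm, 0.00836 in oocytes, 0.0124 in cleavage embryos, 0.00651 in blastulae and 0.00858 in gastrulae. In MA it was 0.0103 in sperm, 0.0103 in cleavage embryos and 0.0104 in blastulae. Leaving out the pair, which was chosen for its methylation, had to lower the level in each library. In FL sperm, FL cleavage, FL gastrula and MA sperm the remaining level was still above that of all 3 single-gene regions. Where anthox7 and anthox6 begin and end within this region was not analysed here, so the pair of windows is given by its position and not by its place in a gene.

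Of the 95 windows that overlap the 4 regions, 92 had enough covered CpGs to be classed. Of these, 90 were unmethylated in all 8 libraries, beside 71.6% of all 196961 windows classed in the genome. None of the 92 was methylated above 0.8 in all 8 libraries, beside 11.7% of all windows, and the 2 in neither class were the windows of the pair. Outside the pair, 89 of 90 windows stayed below 0.05 in every library. The exception, 698001 to 699000 on scaffold 61, reached 0.0583 in MA sperm. The 3 windows that could not be classed lie on scaffold 61 and begin at 663001, 687001 and 696001, with 2, 0 and 3 CpGs of 5 reads in all libraries.

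**Figure D2:**
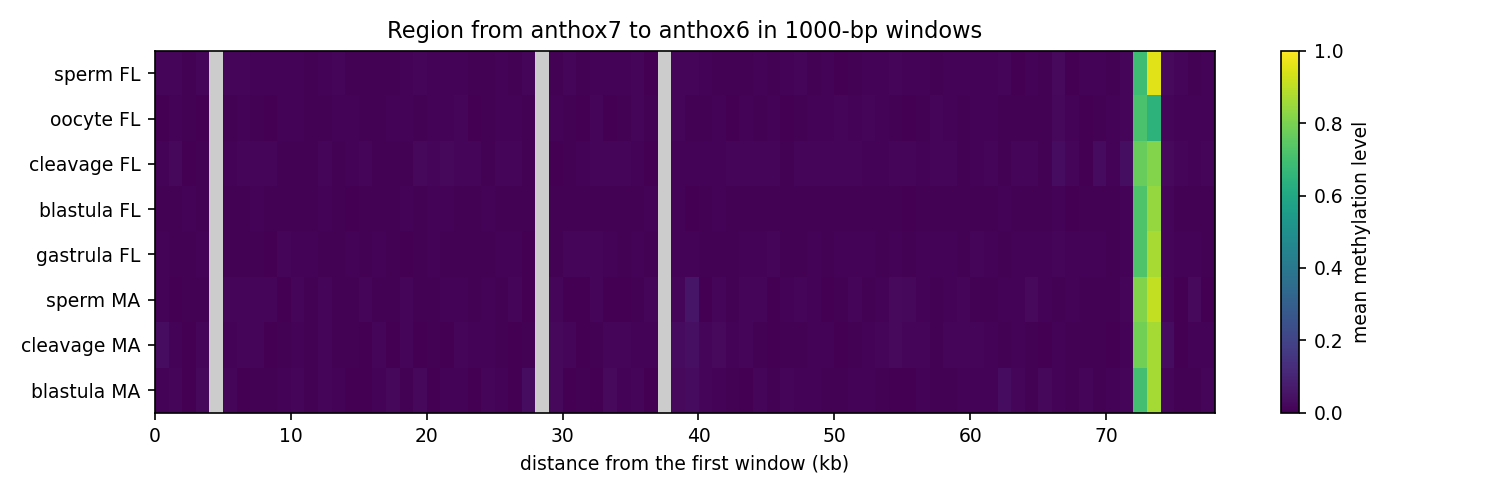
Mean methylation level (colour, 0 to 1) of the 1000-bp windows from anthox7 to anthox6 by distance from the first window in kb (x axis) in the 8 libraries (rows), with the 3 windows that could not be classed in grey. The pair of methylated windows stands alone near the right end in all 8 libraries, and oocytes are lower than the other libraries in the second of them.

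The pair of windows was chosen because it was known to be methylated, so its height is a description and not a test. In window 731001 to 732000, the mean level was 0.696 in FL sperm, 0.757 in oocytes, 0.790 in cleavage embryos, 0.745 in blastulae and 0.743 in gastrulae, and in MA it was 0.808 in sperm, 0.788 in cleavage embryos and 0.749 in blastulae. The MA cleavage value rests on 63 reads of 6 CpGs, whereas the others rest on 146 to 503 reads of 9 CpGs. In window 732001 to 733000, the FL levels spread more widely, with 0.956 in sperm, 0.647 in oocytes, 0.814 in cleavage embryos, 0.841 in blastulae and 0.871 in gastrulae. The MA levels of this window were 0.909 in sperm, 0.864 in cleavage embryos and 0.866 in blastulae. Oocytes were thus the lowest and FL sperm the highest of the 8 libraries in the second window, while in the first window FL sperm was the lowest. MA oocytes and MA gastrulae were not analysed here.

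**Figure D3:**
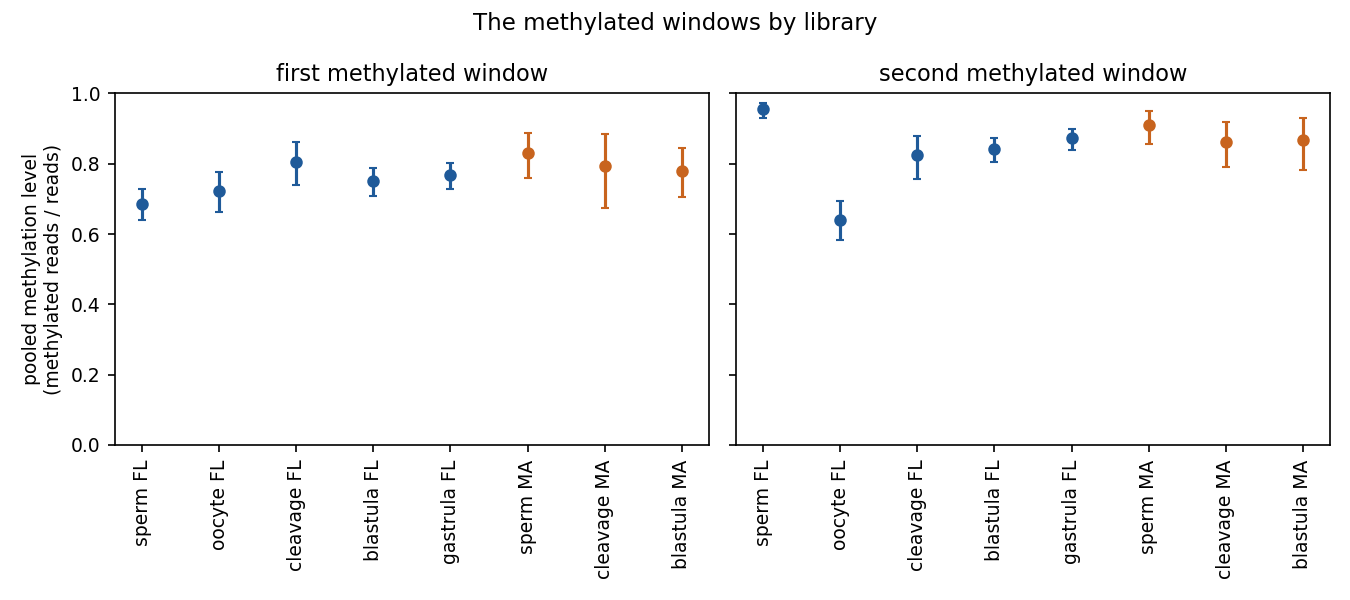
Pooled methylation level (y axis, 0 to 1) of the windows 731001 to 732000 (left) and 732001 to 733000 (right) in the 8 libraries, FL in blue and MA in orange, with 95% Clopper-Pearson intervals. In the second window the interval of FL oocytes, 0.584 to 0.693, lies below and that of FL sperm, 0.931 to 0.972, lies above those of the 3 FL embryo libraries.

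The methylated stretch was taken to run from the first to the last CpG at 0.5 or above in most libraries. Its ends are thus high by choice. It ran over 17 CpGs from 731241 to 732971, a length of 1731 bp, and every one of them was at 0.5 or above in every library with 5 reads, with a lowest value of 0.538. The CpG before it, 731090, lies 151 bp away and was at 0.0169 in FL sperm, 0.0526 in FL oocytes, 0.154 in FL cleavage, 0.0980 in FL blastula and 0.132 in FL gastrula. In MA the same CpG was at 0.615 in sperm with 8 of 13 reads, at 0.222 in cleavage embryos with 2 of 9 and at 0.0833 in blastulae with 1 of 12. This edge thus lay between 731090 and 731241 in every library except MA sperm.

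On the other side the next CpG, 733012, follows after 41 bp and was intermediate. Its level was 0.548 in FL sperm, 0.189 in oocytes, 0.600 in cleavage embryos, 0.380 in blastulae and 0.391 in gastrulae, and in MA it was 0.182 in sperm, 0.667 in cleavage embryos and 0.273 in blastulae. The CpG after that, 733062, was at 0.0769 or below in all 8 libraries. The fall from the stretch to the floor therefore took place between 732971 and 733062 in all of them.

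The 17 CpGs of the stretch were not equally methylated. The most uniform was 731277, which was at 0.889 or above in all 8 libraries, followed by 731863, at 0.843 or above. Others were partly methylated in several libraries. CpG 731241 was at 0.543 in FL sperm, 0.615 in MA sperm, 0.683 in FL blastula and 1 in FL cleavage, and 731994 lay between 0.655 in FL sperm and 0.90 in MA sperm. In FL sperm, the CpGs 731241, 731574, 731614 and 731994 were at 0.543, 0.595, 0.568 and 0.655, and the other CpGs of the stretch were at 0.882 or above. In FL oocytes, 731574 and 731994 were also partly methylated, both at 0.692, and so were all 9 CpGs from 732037 to 732971, between 0.568 and 0.742.

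**Figure D4:**
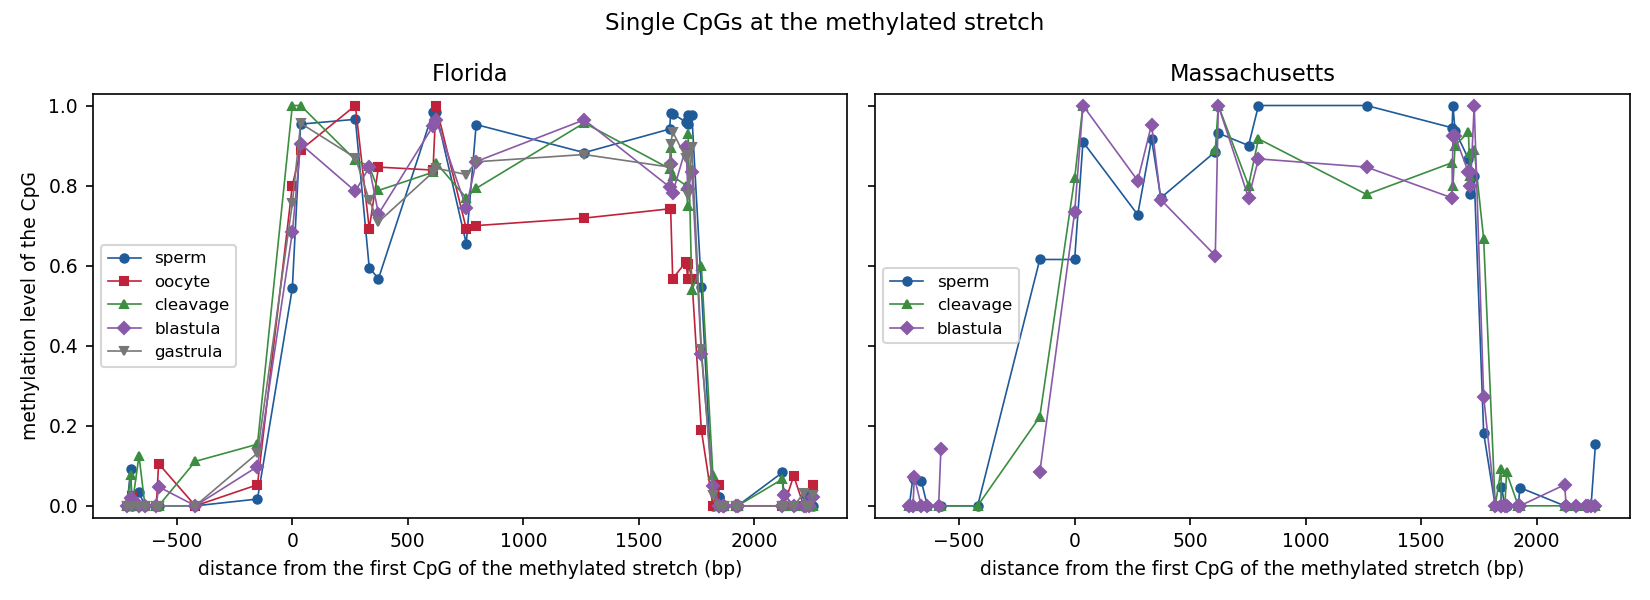
Methylation level (y axis, 0 to 1) of single CpGs with at least 5 reads by distance in bp from the first CpG of the methylated stretch (x axis), for FL (left) and MA (right), with 1 line per stage. Between 0 and 1730 bp every CpG is at 0.538 or above, while the CpGs on either side are near 0, except for the ones next to the stretch.

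The stretch was poor in CpGs. It held 9.82 CpGs per kb, whereas anthox1 held 42.2, anthox1a 34.4, anthox6a 38.5 and the region from anthox7 to anthox6 as a whole 33.8. Each window of the pair listed 9 CpGs, and the 90 unmethylated windows listed 18 to 58 with a median of 35. Genome-wide, the windows unmethylated in all 8 libraries had a median of 36 CpGs, and those methylated in all 8 had a median of 13, with quartiles of 9 and 19.

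**Figure D5:**
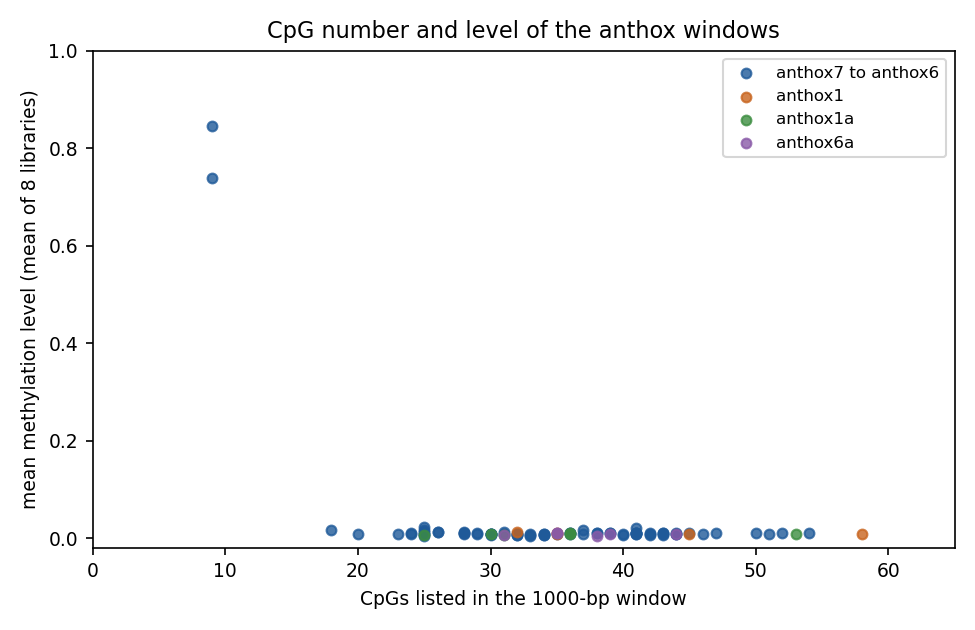
Mean methylation level over the 8 libraries (y axis) against the number of CpGs listed (x axis) for the 92 windows classed in the anthox regions, coloured by region. The pair of methylated windows, with 9 CpGs each, lies apart from the 90 others, which hold 18 to 58 CpGs.

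Pairs of libraries were compared window by window to ask whether the methylation of these regions changes between gametes, during early development or between populations. Reads with and without methylation were compared by a 2-sided Fisher's exact test, with Benjamini-Hochberg adjustment over all windows of the genome, and a window was called where the adjusted p was under 0.05 and the mean levels differed by 0.2 or more. Such a test compares the libraries and not the conditions. Neighbouring CpGs share reads, so its p-values are too small.

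Between FL sperm and oocytes, 1 of the 95 anthox windows was called, beside 1.77% of all windows tested. It was 732001 to 733000, where sperm had 423 methylated of 443 reads and oocytes 201 of 314, a difference of 0.309 (adjusted p = 8.78e-28, Fisher's exact test). Most windows of the regions are at the floor and could hardly differ by 0.2. Among all windows at 0.5 or above in either of these libraries, a background chosen after the data were seen, 5.77% were called. In the adjacent window 731001 to 732000, the sperm minus oocyte difference was -0.0608, which was not called (adjusted p = 0.723, Fisher's exact test). Outside the pair, the differences of the other 93 windows lay between -0.0160 and 0.0117.

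Tested one by one, 5 of the 3072 CpGs of the regions differed between FL sperm and oocytes, beside 1.34% of all CpGs tested. They were 732888, 732946, 732953, 732955 and 732971, which lie close together at the end of the stretch. Sperm was higher at each, by 0.349 to 0.412, with adjusted p between 0.000403 and 0.00562 (Fisher's exact test over all CpGs, added after the data were seen). A single fragment can cover all of them, so they are not 5 independent observations. Over the whole stretch, sperm was above oocytes at 11 CpGs and below at 6. The largest difference in favour of oocytes was at 731614, with 0.568 in sperm and 0.846 in oocytes, and it was not called (adjusted p = 0.829, Fisher's exact test).

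The FL embryos lay between the gametes in the second window. Cleavage embryos were lower than sperm by 0.142 (adjusted p = 2.56e-05) and higher than oocytes by 0.167 (adjusted p = 0.000598), both by Fisher's exact test and both short of the difference of 0.2. From sperm to cleavage 0 of 94 anthox windows were called, beside 1.22% of all windows, and from oocytes to cleavage 0 of 94 beside 1.20%. At an unadjusted p below 0.05 there were 9 and 12 anthox windows, beside 24.1% and 20.4% of all windows. Later embryos were set against the gametes in pairs added after the data were seen. Oocytes were lower than both, with a difference of -0.194 to blastulae (adjusted p = 1.16e-08) and of -0.224 to gastrulae (adjusted p = 1.47e-12), and the latter was the 1 call of 95 windows in its pair, beside 0.952% of all windows (Fisher's exact test). Sperm was higher than blastulae by 0.115 (adjusted p = 5.72e-07) and than gastrulae by 0.0849 (adjusted p = 0.00013), both by Fisher's exact test and both short of the difference of 0.2. Neither of these was called. The counts were 0 of 95 in oocytes against blastulae, sperm against blastulae and sperm against gastrulae, beside 0.947%, 0.949% and 0.971% of all windows. At an unadjusted p below 0.05 these pairs had 10, 8 and 9 anthox windows, beside 19.2%, 22.6% and 21.6% of all windows. These comparisons share the sperm and oocyte libraries, and the parents of the sampled embryos are not stated to be the animals whose gametes were sampled.

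During embryogenesis, no anthox window was called. The count was 0 of 95 from cleavage to blastula and 0 of 95 from blastula to gastrula in FL, beside 0.214% and 0.0316% of all windows, with 27 and 13 windows at an unadjusted p below 0.05 beside 21.8% and 13.1% of all windows. From cleavage to blastula, 7 of the 95 windows had an adjusted p below 0.05 (Fisher's exact test), beside 8.86% of all windows, and cleavage was higher in all 7. They include 2238001 to 2239000 at anthox1a, with 0.0206 in cleavage embryos and 0.00392 in blastulae, and 6 windows of scaffold 61. From blastula to gastrula the count was 0, beside 2.51%. Outside the pair, cleavage minus blastula differences had a median of 0.00516 and blastula minus gastrula differences a median of -0.00202. Over the genome's unmethylated windows, the median level was 0.0112 in FL cleavage, 0.00681 in FL blastula and 0.00878 in FL gastrula. In MA, the count was 0 of 94 from sperm to cleavage and 0 of 93 from cleavage to blastula, beside 3.17% and 0.565%. At an unadjusted p below 0.05 there were 4 and 7 anthox windows, beside 14.6% and 11.2% of all windows.

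Between the populations, no anthox window was called in sperm, cleavage embryos or blastulae, with 0 of 94 in each, beside 4.90%, 7.47% and 7.30% of all windows. At an unadjusted p below 0.05 there were 5, 8 and 14 anthox windows, beside 20.7%, 21.9% and 25.9% of all windows. At an adjusted p below 0.05 (Fisher's exact test) there were 4, 2 and 6 of 94 anthox windows, beside 14.1%, 15.1% and 18.7% of all windows. The window 698001 to 699000 was the only anthox window among them in all 3 stages, and MA was higher each time. The share of all windows that reach this in all 3 stages was not computed. Its level was 0.0583 in MA and 0.0188 in FL sperm (adjusted p = 0.00454), 0.0412 and 0.0113 in cleavage embryos (adjusted p = 0.0456), and 0.0302 and 0.00239 in blastulae (adjusted p = 5.93e-05), all by Fisher's exact test and all far below a difference of 0.2. By single CpGs, 2 of 2889 were called between MA and FL sperm, beside 2.11% of all CpGs tested. They were 731090, next to the methylated stretch, with 0.615 against 0.0169 (adjusted p = 0.000202), and 698315, with 0.385 against 0 (adjusted p = 0.019), by Fisher's exact test.

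Outside the pair of windows, single methylated CpGs were counted at a level of at least 0.2 with 10 or more reads, which 2 methylated reads can reach. Such a level was seen in any library at 25 of 3074 CpGs with that depth, or 0.813%. The share was 18.3% over all CpGs of the genome and 2.33% over those in windows unmethylated in all 8 libraries. Per library the count ran from 0 of 2993 CpGs in FL oocytes, which allows a share of up to 0.10%, to 9 of 2829 in FL cleavage and 10 of 1776 in MA cleavage. Anthox1 had 3 such CpGs, at 1069481, 1070341 and 1071334, each in 1 MA library. Anthox6a had 1, at 330526 in MA cleavage, and anthox1a had 0. On scaffold 61, 2 CpGs recurred in more than 1 library, 733012 beside the stretch in 6 and 698052 in FL sperm and MA cleavage.

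Of the 10 CpGs with the highest mean level outside the pair, all on scaffold 61, 3 lie in the window 698001 to 699000. CpG 698040 was at 0.462 in MA cleavage and 0.188 in MA sperm, and at 0.0222 or below in the 5 FL libraries. CpG 698052 was at 0.273 in FL sperm and 0.231 in MA cleavage, and CpG 698315 was at 0.385 in MA sperm. The others, apart from 733012, were 660785, 663963, 720032, 725055, 728887 and 735945, with mean levels of 0.0510 to 0.0762. Among them 725055 was above 0 in all 5 FL libraries, with 0.278 in sperm and 0.0556 to 0.109 in the others, and at 0 in the 3 MA libraries, which had 6 to 12 reads there.

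Most windows that could be classed around the regions were unmethylated. The nearest window methylated in all 8 libraries lay 62.0 kb before and 20.7 kb after anthox1, 30.3 kb before and 26.98 kb after anthox1a, 70.6 kb before and 22.6 kb after anthox6a, and 21.3 kb before and 22.6 kb after the region from anthox7 to anthox6. Of all unmethylated windows on scaffolds with a methylated one, 39.96% lay 20 kb or more from it, with a median of 15 kb. The pair itself does not count as methylated by this rule, so windows methylated to a similar level can lie closer than these distances. Among the 10 windows on either side of each region, those with enough CpGs were below 0.2 in all libraries, except 1 of 4 before anthox7 to anthox6, which reached 0.346. Before anthox1, too, only 4 of the 10 windows had enough CpGs. The methylated stretch lies 71.9 kb after the first and 3.39 kb before the last CpG of its region.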

How the data were processed

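WGBS calls of 8 sea anemone samples were used. The authors used Trimmomatic for trimming and Bismark for alignment to ASM20922v1 with lambda DNA, then removed duplicates, clipped overlapping pairs with bamUtil and extracted methylation calls. SAMtools 0.1.19 is named in the submitters' processing notes, and other versions are not given in the sources used here. The authors deposited, per CpG of both strands together, the counts of methylated and unmethylated reads and the level as a fraction, which is not corrected for non-conversion. A C-to-T variant reads as an unmethylated cytosine.

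Levels were recomputed here from the counts over CpGs with at least 5 reads. Positions count from 1, with the deposited starts taken to count from 0. Groups follow stage and population in the labels. Fisher's exact test was run on the reads of 1000-bp windows that had 3 or more such CpGs, in 10 pairs of libraries and 4 added ones, in place of DSS, whose minimum of 3 CpGs and difference of 0.2 were kept. On simulated data at the depths of FL sperm and oocytes, 189 of 200 windows changed by 0.3 were called among 264711, with 1 unchanged window, for counting noise only. This share was not measured at the lower depths of FL cleavage and the MA libraries. Nor was it measured separately for windows at the floor, which cannot fall by 0.3. It therefore gives no sensitivity for those libraries or for the anthox windows outside the methylated pair. Depth ranged from a median of 9 to 48 reads per CpG. The members, regions and tests were chosen with earlier results of these data known. All 5 genes were to be named, with the windows of the pair, any called window and the 10 CpGs with the highest mean level elsewhere. An exception is the window 698001 to 699000, named after its values were seen. Alternatives covered minimum reads and CpGs, pooling, depth, window size, thresholds and region bounds. A wider list of Hox-linked genes, gene positions within scaffold 61, sequences, and the other 14 samples of the series were not analysed here. Python 3.11.15, numpy 2.4.6, pandas 2.3.3, scipy 1.17.1, numba 0.67.0 and matplotlib 3.10.9 were used.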

Additional observations from a re-analysis of the deposited data

How the results depend on the processing

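Region levels stayed between 0.00538 and 0.0181 under the alternatives, but single values moved. At anthox6a, MA cleavage went from 0.00896 to 0.0119 with a minimum of 10 reads. FL oocytes there went from 0.00971 to 0.0112 with CpGs that reach the minimum in the library itself. Both are above the highest main level of anthox6a, 0.0105. In the region from anthox7 to anthox6, with reads pooled over CpGs, FL blastula moved to 0.0113 and MA sperm to 0.0177. With a minimum difference of 0.1, 1 anthox window was called in place of 0 in FL sperm against cleavage, FL oocytes against cleavage, MA against FL sperm, and, in the pairs added after the data were seen, oocytes against blastulae and sperm against blastulae. With 500-bp windows, FL sperm against cleavage had 1 call of another window and the opposite direction, 731001 to 731500, where the sperm minus cleavage difference was -0.213, whereas at 0.1 sperm was higher in 732001 to 733000. With a minimum difference of 0.3, the call between oocytes and gastrulae was lost (0 in place of 1), while FL sperm against oocytes gave 1 call under every alternative tried. With a minimum of 10 reads, 100% of the classed windows were unmethylated in place of 97.8%, since fewer windows had enough CpGs. Both windows of the methylated pair were among those no longer classed, so this is no change in their level. Single methylated CpGs outside the pair numbered 1 at a level of 0.5 and 43 at a minimum of 5 reads, in place of 25. No paired analysis was possible because the labels give no replicate numbers that pair libraries of different groups, and no replicate could be left out as each stage has 1 set of counts. With MA and FL paired by stage instead, in a test added after the data were seen, the 3 pairs allow an exact permutation p of 0.25 at the smallest, so no call could be made. MA was higher in 3 of 3 stages in the window 698001 to 699000, by a mean of 0.0324, and in 731001 to 732000, by 0.0450, and in 2 of 3 in 732001 to 733000. In 731001 to 732000 the difference was 0.112 in sperm and 0.00406 in blastulae, and this window includes 731090, outside the stretch. Over the stretch, sperm was at 0.873 in both populations. Cleavage embryos were at 0.878 in MA and 0.840 in FL, and blastulae at 0.850 and 0.834. The window 698001 to 699000 was picked for its values in these same 3 pairs, so its agreement over stages adds no support. Depth limits the MA libraries most, where the median is 9 to 13 reads per CpG.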
